A study of Mus musculus with 14 samples.

Results

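The genes described here are 10 genes of growth arrest and of the response to the tumour suppressor p53: Cdkn1a, Btg2, Mdm2, Ccng1, Trp53inp1, Gadd45a, Gadd45b, Gadd45g, Sesn1 and Sesn2. They were taken by gene symbol from the array annotation, out of 12945 genes that passed a filter on low signal. All 10 passed it. Cdkn1a and Btg2 were chosen by their lower signal in exercised than in sedentary tissue on these arrays, so their differences are given as a description with no test, and the question was whether the other 8 genes shared that difference. For each gene the brightest probe set on average over the 14 arrays was used, and its other probe sets serve as a check. Signals of different probe sets are not on a common scale, so no gene's level is set against another's.

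The samples were the subcutaneous white fat depot of male mice of strain C57BL/6, 12 weeks old. Exercised mice (7 arrays) had been kept in wheel cages for 11 days, and sedentary controls (7 arrays) carry the same time label. Strain, sex, age and depot are shared by both groups, and no transgene or drug is named. It is not stated that every array is a different animal, so the p-values cover the scatter among arrays, part of which could be technical.

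p53 is a transcription factor that is stabilised by DNA damage and other stress and switches on genes that stop the cell cycle, repair DNA or remove the cell. Cdkn1a encodes p21, the inhibitor of cyclin-dependent kinases through which p53 arrests cells, and Mdm2 encodes the ubiquitin ligase that is itself a p53 target and degrades p53, which closes a feedback loop. In adipose tissue p53 and p21 are known for their part in ageing and obesity-linked stress and in adipocyte differentiation, and many of these genes also respond to other factors, among them glucocorticoids, growth factor signals and the clock.

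Promoter windows of 9 of the 10 genes were found in the RefSeq tables (mouse assembly GRCm38.p6; Trp53inp1 had none in the table used). The 250 bases before the annotated start are shown for Cdkn1a, which has 2 starts, for Btg2, and for Ccng1 and Gadd45b. The last 2 were picked by their differences between the groups. That of Ccng1 had the opposite sign to that of Cdkn1a and that of Gadd45b was near it in size, but neither passed the threshold used below. Capitals mark matches, on either strand, to 6 motifs. The p53 tandem site is a pair of p53 core elements side by side with at most 1 of 20 letters off. TGACGTCA is the cyclic AMP response element, and CACGTG is an E-box, read by clock and Myc factors. GGGCGG is the motif of Sp1, and 2 of its 3 matches in Btg2 overlap by 1 base. The others are the CCAAT box and the core promoter letters TATAA. Windows are at chr17:29090729-29090978 (plus strand) and chr17:29093519-29093768 (plus) for Cdkn1a, chr1:134079156-134079405 (minus) for Btg2, chr11:40755287-40755536 (minus) for Ccng1 and chr10:80929841-80930090 (plus) for Gadd45b, each written 5′ to 3′ towards the gene.
Cdkn1a, upstream start: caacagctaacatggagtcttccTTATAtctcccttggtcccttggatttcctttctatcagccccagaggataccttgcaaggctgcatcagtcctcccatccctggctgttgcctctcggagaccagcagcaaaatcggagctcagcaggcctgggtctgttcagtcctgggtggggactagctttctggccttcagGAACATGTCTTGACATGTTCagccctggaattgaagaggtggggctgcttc
Cdkn1a, downstream start: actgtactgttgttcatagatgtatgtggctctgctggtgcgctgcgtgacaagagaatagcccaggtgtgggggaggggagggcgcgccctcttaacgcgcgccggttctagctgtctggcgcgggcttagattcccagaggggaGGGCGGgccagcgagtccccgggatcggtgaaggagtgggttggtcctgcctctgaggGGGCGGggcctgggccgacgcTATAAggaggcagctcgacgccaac
Btg2: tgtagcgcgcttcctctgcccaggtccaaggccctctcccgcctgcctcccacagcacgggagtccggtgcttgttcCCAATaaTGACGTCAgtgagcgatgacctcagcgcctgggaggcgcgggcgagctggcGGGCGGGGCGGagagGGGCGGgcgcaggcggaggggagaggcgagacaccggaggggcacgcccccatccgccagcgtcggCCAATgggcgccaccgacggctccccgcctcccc
Ccng1: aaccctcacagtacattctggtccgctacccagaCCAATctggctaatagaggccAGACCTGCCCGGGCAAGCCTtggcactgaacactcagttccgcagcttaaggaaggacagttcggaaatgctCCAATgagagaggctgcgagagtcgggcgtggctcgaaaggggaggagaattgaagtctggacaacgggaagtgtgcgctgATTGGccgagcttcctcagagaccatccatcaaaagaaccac
Gadd45b: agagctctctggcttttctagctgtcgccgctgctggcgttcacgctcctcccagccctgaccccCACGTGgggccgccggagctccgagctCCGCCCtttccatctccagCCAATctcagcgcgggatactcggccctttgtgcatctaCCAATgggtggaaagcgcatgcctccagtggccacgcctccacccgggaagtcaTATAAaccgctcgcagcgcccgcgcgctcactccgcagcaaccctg

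Of the 11 windows of these genes, 1 of Cdkn1a and the 1 of Ccng1 held a p53 tandem site, which 0.0761% of all 32851 promoter windows hold. In Cdkn1a it was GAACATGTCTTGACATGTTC, from 51 to 32 bases before the upstream start, and in Ccng1 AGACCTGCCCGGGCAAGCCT, from 195 to 176 bases before the start. A single p53 core element, not marked on its own, stood in the windows of Mdm2, Ccng1 and Gadd45a. The upstream window of Cdkn1a and the downstream one of Sesn1 also held it, as did 7.13% of all windows. TGACGTCA stood in the Btg2 window, 166 to 159 bases before the start, and in 1.55% of all windows. CACGTG stood in the windows of Gadd45b and Gadd45g, and in 6.02% of all windows. The Sp1 motif, the CCAAT box and the core promoter letters are common, being found in 32.7%, 33.8% and 22.8% of all windows. These are matches of letters, and neither a match nor its absence says what binds there.

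Over all genes, limma (a linear model with moderated variances) called 716 of 12945 at a Benjamini-Hochberg adjusted p under 0.05, which is 5.53%: 4.0% were higher and 1.53% lower in exercised tissue, or 518 and 198 genes. With the macrophage marker level as a covariate, the split was 151 higher and 174 lower. The median log2 difference of all genes was -0.03. The median signal of an array ranged from 531.3 to 617.4. The 17 mature adipocyte markers tested had mean log2 levels from 13.98 to 15.33, lowest on sedentary array 5. That array also stood apart in other ways, with the highest level of macrophage markers (13.40, against 12.49 to 13.17 on the other 6 sedentary arrays), of lymphocyte markers (12.60, against 8.79 to 12.04) and of 28 cell cycle and replication genes (11.93, against 10.29 to 10.99). Values without it are given for the genes that were highest there and for the lists. In whole tissue, fewer cells of a type and less RNA per cell cannot be told apart.

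Exercised tissue had a Cdkn1a signal 2.02-fold below that of sedentary tissue and a somewhat lower Btg2 signal, and by limma none of the other 8 genes passed the threshold. Gadd45b and Sesn1 had differences of -0.99 and -0.40, Ccng1 of 0.44, and the remaining 5 genes, Mdm2, Trp53inp1, Gadd45a, Gadd45g and Sesn2, differed by at most 0.22 on the log2 scale. Of the 8 genes tested 0 passed at an adjusted p under 0.05, against 5.53% of all genes, and 3 had an unadjusted p under 0.05 (Ccng1, Gadd45b and Sesn1), against 21.8% of all genes. Differences were negative for 6 of the 8, with a median of -0.19, and for 7123 of all 12945 genes.

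**Figure D1:**
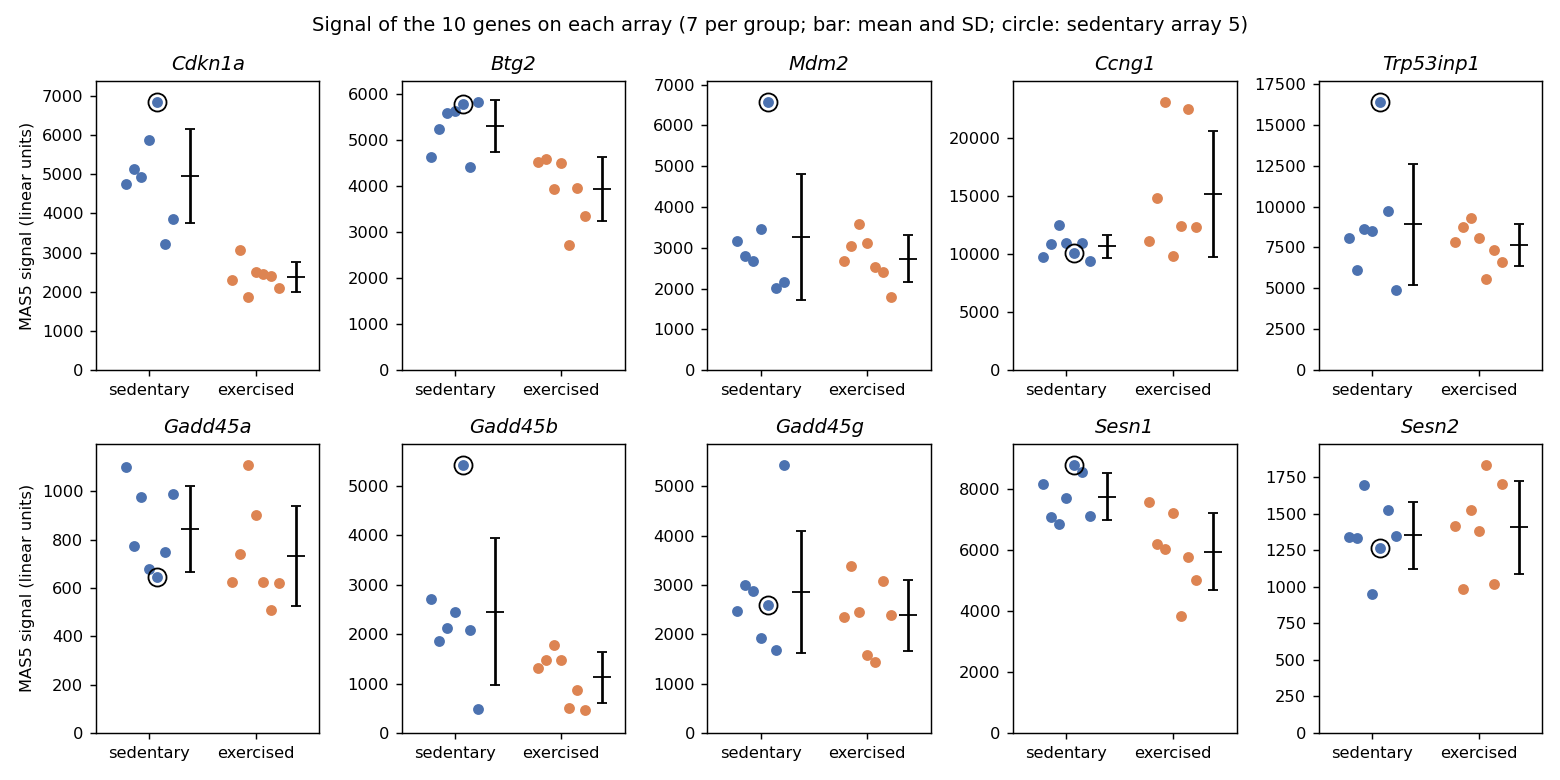
MAS5 signal in linear units for each of the 10 genes on each of the 7 sedentary (blue) and 7 exercised (orange) arrays, with mean and SD beside the points and sedentary array 5 circled. The groups are fully separate only for Cdkn1a, and the circled array is the highest of all 14 for 5 genes.

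Among the genes that halt the cell cycle, Cdkn1a had signals from 3225 to 6825.3 on sedentary arrays, with a median of 4927.1. On exercised arrays they ran from 1863.4 to 3076.4, with a median of 2394. All 7 exercised arrays thus lay below all 7 sedentary ones, and the highest value of all was on sedentary array 5. The mean signal was 4940 ± 1198 (SD, n = 7) in sedentary and 2385 ± 378.4 (SD, n = 7) in exercised tissue, a log2 difference of -1.01 (SE 0.15), or 2.02-fold lower. Its second probe set differed by -0.97. Of the 12945 genes, 36 had a more negative difference, and in 2.68% of all genes the groups did not overlap in either direction.

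Btg2 encodes an antiproliferative protein that works with the machinery that shortens messenger RNA tails. Its signals ran from 4419.3 to 5812.2 (median 5589.9) on sedentary and from 2713.3 to 4578 (median 3962.8) on exercised arrays. Here the groups touched, since sedentary array 6 lay among the exercised values, while all 7 exercised arrays were below the sedentary median. The mean signal was 5296 ± 562.1 in sedentary and 3939 ± 698.6 in exercised tissue (SD, n = 7 each), a log2 difference of -0.44 (SE 0.12), or 1.35-fold lower, and -0.52 in a second probe set. The Btg2 difference was thus the smaller of the pair in size.

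The Gadd45 genes encode small stress-induced proteins that bind p21, cyclin B1 and the kinase MEKK4. Gadd45b, which is also switched on by NF-kB and TGF-beta, had the second most negative difference of the 10, with wide scatter. Its signals ran from 493.3 to 5420.6 (median 2126.3) on sedentary arrays and from 472.6 to 1769.7 (median 1306.9) on exercised arrays. Of the 7 sedentary arrays 6 lay above all exercised arrays, and the exception, sedentary array 7, was near the lowest exercised values. The log2 difference was -0.99 (SE 0.42, limma adjusted p = 0.182, 95% interval -1.90 to -0.07). Without sedentary array 7 it was -1.31 (SE 0.32, limma adjusted p = 0.0286), without sedentary array 5 it was -0.76 (SE 0.39, limma adjusted p = 0.296), and over all alternatives the adjusted p ran from 0.0286 to 0.742. Other probe sets differed by -0.51 and, under the signal filter, by -0.10.

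The other genes of that family gave smaller differences. Gadd45a, the member most closely tied to p53 and DNA damage, had signals from 645 to 1102.9 (median 773.5) on sedentary and from 510 to 1109 (median 624.7) on exercised arrays, with 4 exercised arrays below and 1 above every sedentary array. Its log2 difference was -0.21 (SE 0.17, limma adjusted p = 0.49, 95% interval -0.57 to 0.16). Gadd45g, a relative induced by cytokines, ran from 1691.3 to 5431.6 (median 2594.6) on sedentary and from 1433 to 3385.8 (median 2394.7) on exercised arrays, and only sedentary array 7 lay above the exercised range. It differed by -0.22 (SE 0.24, limma adjusted p = 0.618, 95% interval -0.74 to 0.30), and by -0.05 without that array. Gadd45a was the only one of the 10 with its lowest sedentary value on array 5.

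Sesn1 and Sesn2 encode sestrins, stress proteins that restrain the growth kinase mTORC1. Sesn1, like Sesn2 a p53 target, had signals from 6836.7 to 8765.5 (median 7677.8) on sedentary and from 3829.8 to 7564.8 (median 6024.7) on exercised arrays. All 7 exercised arrays lay below the sedentary median, and 5 of them lay below every sedentary array. The log2 difference was -0.40 (SE 0.13, limma adjusted p = 0.0817, 95% interval -0.68 to -0.12), or a 1.32-fold ratio. The next 2 probe sets differed by -0.49 and -0.48, close to the main one, and the dimmest by -0.12. Its adjusted p stayed above the threshold in all 28 alternatives, from 0.0563 to 0.391, and without sedentary array 5, its highest, it differed by -0.37 (SE 0.13, limma adjusted p = 0.124). Sesn2, which also responds to the integrated stress response, had signals from 954 to 1697.1 (median 1339.6) and from 987 to 1832.9 (median 1417.7), so that the groups overlapped throughout. It differed by 0.04 (SE 0.15, limma adjusted p = 0.889, 95% interval -0.28 to 0.37).

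Ccng1, which encodes cyclin G1, a p53 target that recruits a phosphatase to Mdm2, had the largest positive difference of the 10. Its signals ran from 9417.1 to 12488.1 (median 10858.3) on sedentary and from 9846.9 to 23068.3 (median 12434.8) on exercised arrays, with 3 exercised arrays, numbers 2, 3 and 6, above every sedentary array. The log2 difference was 0.44 (SE 0.17, limma adjusted p = 0.157, 95% interval 0.06 to 0.82). Its other probe sets differed by 0.41 and 0.54, and the latter passed in the fit over every probe set (limma adjusted p = 0.0221 over 27026 probe sets). Cdkn1a and Ccng1 each have a window above that holds a p53 tandem site, and their differences had opposite signs. Cdkn1a was chosen for its negative difference and the main probe set of Ccng1 did not pass, so nothing is read from these signs.

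Mdm2 and Trp53inp1, a p53 target involved in autophagy and cell death, had small differences with wide intervals. Mdm2 had signals from 2010.5 to 6561.4 (median 2804.8) on sedentary and from 1801 to 3593.3 (median 2669.7) on exercised arrays. Only sedentary array 5 exceeded all exercised arrays. The log2 difference was -0.17 (SE 0.22, limma adjusted p = 0.671, 95% interval -0.65 to 0.31) and 0.01 (SE 0.16) without that array. A dim Mdm2 probe set under the signal filter, with a mean signal of 274.9, differed by -0.94. Trp53inp1 ran from 4883.3 to 16355.6 (median 8496.4) and from 5557.1 to 9321.2 (median 7803.1), again with its highest value on sedentary array 5. It differed by -0.15 (SE 0.21, limma adjusted p = 0.71, 95% interval -0.59 to 0.30) and by 0.02 (SE 0.16) without that array.

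**Figure D2:**
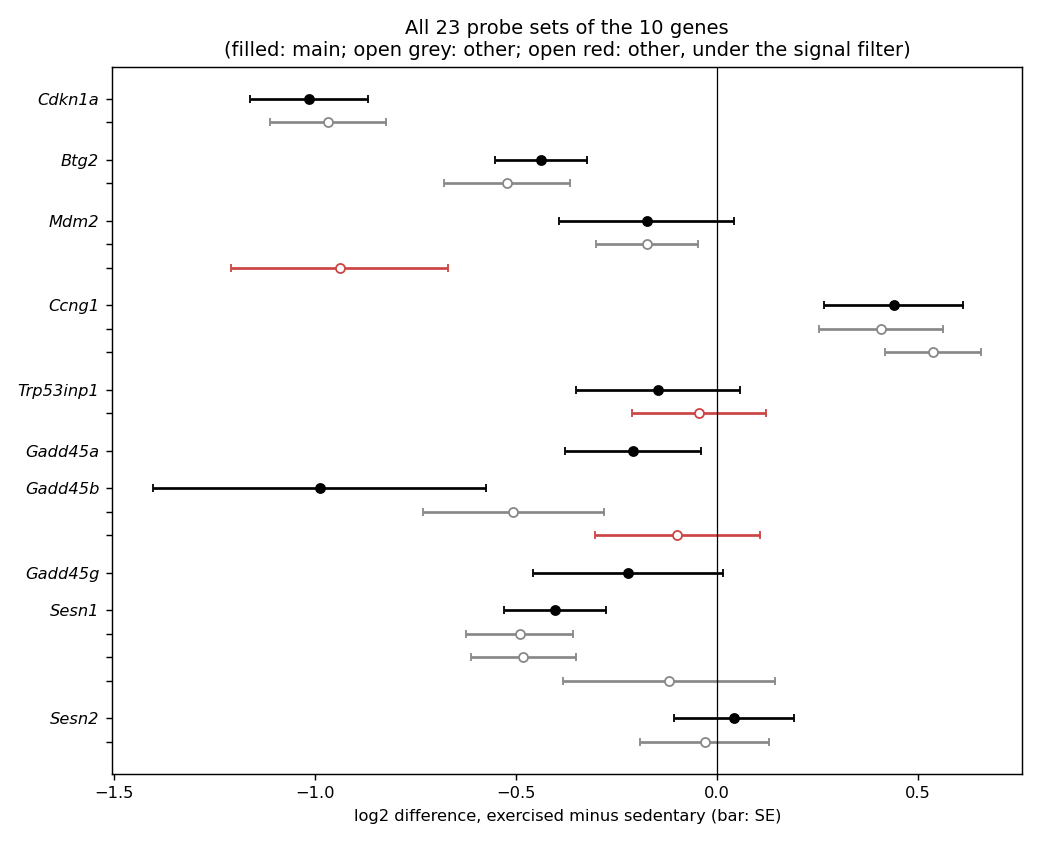
Log2 difference, exercised minus sedentary, with its SE, for all 23 probe sets of the 10 genes; filled points are the main probe sets and open red ones lie under the signal filter. In 12 of 13 cases the other probe sets have the sign of the main one, and the exception is Sesn2.

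Markers of other cell types differed between arrays and moved with several of these genes. All 22 skeletal muscle markers tested had positive differences (median 2.75, 0 past the threshold by limma and 17 higher at an unadjusted p under 0.05), and their summed signal ran from 11300 to 345000 on sedentary and from 14100 to 937000 on exercised arrays. Ccng1 was highest on the 3 arrays highest in muscle markers, exercised 2, 3 and 6, and its difference was 0.14 (SE 0.15, limma adjusted p = 0.714) with the muscle level as a covariate. Beyond this covariate, the part of muscle RNA in the Ccng1 result was not tested. Cdkn1a differed by -0.97 with that covariate, and the 3 exercised arrays whose mean log2 muscle levels lay within the sedentary range of 8.41 to 13.07, numbers 1, 4 and 5 (9.08, 8.71 and 12.09), had Cdkn1a signals of 2301.5, 2507.7 and 2451.7. Beyond these values, the part of muscle RNA in the Cdkn1a difference was not tested either.

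All 17 lymphocyte markers tested had negative differences (median -0.60, 0 past the threshold by limma and 0 at an unadjusted p under 0.05). Their summed signal ran from 8290 to 142000 on sedentary and from 6630 to 80900 on exercised arrays, and their mean log2 level was lowest on sedentary array 7 and exercised arrays 5 and 7 (8.79, 8.51 and 9.55). Gadd45b had its 3 lowest signals on the same arrays, 493.3, 506.7 and 472.6. With the lymphocyte level as a covariate Gadd45b differed by -0.58 (SE 0.17, limma adjusted p = 0.0573), Sesn1 by -0.31 (SE 0.09, limma adjusted p = 0.0715), Btg2 by -0.38 and Cdkn1a by -0.97. Beyond this covariate, their part in these results was not tested.

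All 22 macrophage markers tested had negative differences (median -0.35, 1 past the threshold by limma), with summed signals of 194000 to 336000 on sedentary and 177000 to 236000 on exercised arrays. With their level as a covariate Cdkn1a differed by -0.80 and Btg2 by -0.38, Gadd45b by -0.41 (SE 0.46, limma adjusted p = 0.742), and Mdm2 and Trp53inp1 by 0.18 and 0.22. The 17 mature adipocyte markers ran the other way, with 16 positive differences and a median of 0.21. Of them 3 were higher past the threshold by limma, against 4.0% of all genes. Their summed signal was 458000 to 729000 on sedentary and 662000 to 849000 on exercised arrays, and their part in the results was not tested. No marker of the 4 lists was at 0 on any array, but the lowest signal of any probe set was 0.1. The absence of zeros therefore does not show that the markers were detected. Without sedentary array 5 Cdkn1a differed by -0.93 and Btg2 by -0.42.

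**Figure D3:**
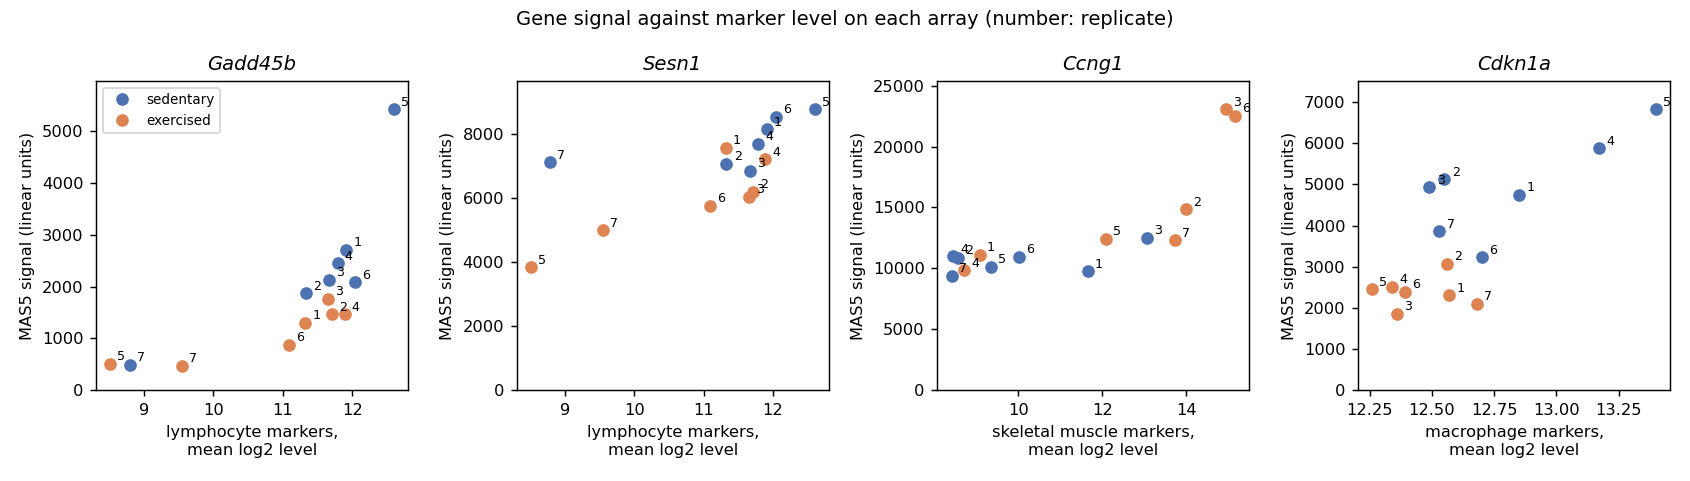
MAS5 signal of 4 of the genes against the mean log2 level of a marker list on each array, blue for sedentary and orange for exercised, numbered by replicate. Gadd45b is lowest on the 3 arrays with few lymphocyte markers, and Ccng1 is highest on the exercised arrays 3 and 6 with most muscle markers. Cdkn1a was chosen for its difference and its groups do not overlap on any array, so they are separate at every macrophage level. Beyond the covariate, the part of macrophage RNA in the Cdkn1a difference was not tested.

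**Figure D4:**
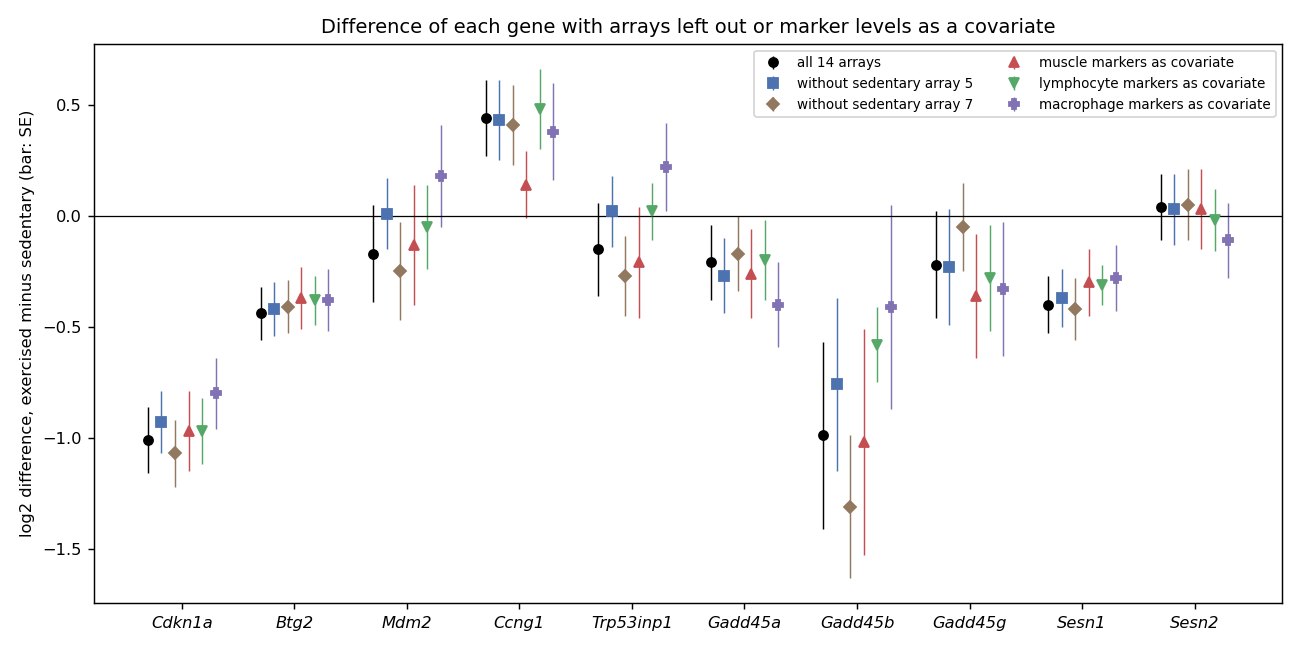
Log2 difference, exercised minus sedentary, with its SE, for each of the 10 genes over all 14 arrays, without sedentary array 5 or 7, and with the muscle, lymphocyte or macrophage level as a covariate. Cdkn1a lies between -1.07 and -0.80 in these settings, while Mdm2, Trp53inp1 and Sesn2 change sign.

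Variation among arrays within a group was compared with Cdkn1a for the 9 other genes in each group, 18 relations in all. None passed after adjustment (exact permutation test over 5040 pairings, two-sided, Benjamini-Hochberg; 1 of 18 at an unadjusted p under 0.05). On the 7 sedentary arrays Mdm2 had the closest relation to Cdkn1a, with Pearson's r of 0.90 (exact permutation p = 0.00496, adjusted p = 0.0893) and Spearman's rho of 0.89 (exact permutation p = 0.0123), and r was 0.88 without arrays 5 and 6, the farthest from the median of Cdkn1a. On the 7 exercised arrays the same r was 0.08 (exact permutation p = 0.871) with rho 0.11 (exact permutation p = 0.84). There r was 0.88 without arrays 2 and 3, 0.77 without array 3 alone and -0.17 without array 2 alone. With the mean of all probe sets the r of Mdm2 was 0.84 on sedentary and -0.33 on exercised arrays. The difference between the groups was not tested. Btg2 had r of 0.58 (exact permutation p = 0.164) and rho of 0.43 (exact permutation p = 0.354) with Cdkn1a on sedentary arrays, and r changed with the arrays kept: -0.12 without arrays 5 and 6, 0.49 without array 5, 0.17 without array 6 and 0.86 (adjusted p = 0.075, exact permutation test) without array 7, and 0.83 with the mean of all probe sets. On exercised arrays r was 0.28 (exact permutation p = 0.53) and rho 0.46 (exact permutation p = 0.302), and r was 0.13 without arrays 2 and 3.

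Genes whose array-to-array deviations from the group means resembled those of Cdkn1a most, over 14 arrays and 12945 genes, were Chsy1 (r = 0.90), Gusb (0.88), Neil3 (0.87), Trem1 (0.86) and Tubb6 (0.86). They encode a chondroitin synthase, the lysosomal beta-glucuronidase, a DNA glycosylase, a receptor of myeloid cells and a tubulin. None of the 5 passed the threshold between groups by limma, with adjusted p from 0.23 to 0.772, and the likeness was measured within groups. Acvr2b (-0.92), Dcaf6 (-0.90) and Magi3 (-0.90) ran opposite to Cdkn1a, and of these Dcaf6 rose (0.53, SE 0.12, limma adjusted p = 0.0195). For Btg2 the most alike were 4932438A13Rik (0.91), Reps1 (0.90), Zfp622 (0.89), Kdm2b (0.88) and Hnrnpr (0.87), and the most opposite Ltbr (-0.91), Col4a1 (-0.90) and Htra3 (-0.89). The lists for Cdkn1a and Btg2 share no gene. These extremes of 12945 genes are a description, and the arrays share differences in cell type markers.

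The wider pathway was read from 7 lists. Of 35 other p53 target genes 29 were tested and 0 passed by limma (2 higher and 3 lower before adjustment at 0.05), with a median difference of -0.07 against -0.03 for all genes. The smallest p-values were those of Ddit4, an inhibitor of mTORC1 (-0.70, SE 0.25, adjusted p = 0.109), and Ak1, an adenylate kinase abundant in muscle (1.35, SE 0.48, adjusted p = 0.118), whose differences had opposite signs. With muscle markers as a covariate Ak1 differed by 0.33 (limma adjusted p = 0.628), and neither gene passed in any of 28 alternatives. A dim Ak1 probe set under the signal filter differed by 0.05. Without sedentary array 5, 0 of the 29 targets passed and their median was -0.08. The list of p53 and its regulators had 22 genes tested, among them Trp63 and Trp73 but not Trp53, which encodes p53. Again 0 passed by limma (2 higher and 2 lower before adjustment, median -0.08). Without sedentary array 5 the list had 1 gene lower, Chek2, and a median of -0.07. The checkpoint kinase Chek2 differed by -0.33 (SE 0.10, adjusted p = 0.0733) and passed as lower in 4 of 28 alternatives (0.016 to 0.268), among them without sedentary array 5 (-0.39, adjusted p = 0.0314). Hipk2, a kinase that phosphorylates p53, differed by 0.43 (SE 0.16, adjusted p = 0.14). It passed in 2 of 28 alternatives (0.0427 to 0.875), and its difference was 0.05 with macrophage markers as a covariate and 0.28 without sedentary array 5. Other Hipk2 probe sets over the signal filter differed by -0.07 to 0.92, and a dim one under it by -0.89.

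Among 9 tested relatives of the 10 genes 2 rose and 0 fell, against 4.0% and 1.53% of all genes. The 2 that rose are close relatives of Btg2: Tob1 and Tob2, antiproliferative proteins of the same BTG/TOB family that also bind the deadenylation machinery. Tob1 had signals from 8078.3 to 15822.3 on sedentary and from 19125.8 to 28455.6 on exercised arrays. The groups thus did not overlap, as in 2.68% of all genes in either direction. Tob1 rose by 0.76 (SE 0.14, limma adjusted p = 0.00539), passing in 27 of 28 alternatives (0.00111 to 0.0559). Tob2 rose by 0.48 (SE 0.13, limma adjusted p = 0.0468) and passed in 8 of 28 alternatives, with adjusted p from 0.0212 to 0.187. Its other probe sets differed by 0.15 to 0.62. Without sedentary array 5 only Tob1 of the 9 passed, and the list median was -0.08. Btg1, the closest relative of Btg2 in the list and named here after its values were seen, had a negative difference like Btg2 (-0.30, limma adjusted p = 0.126; -0.20 and -0.80 in its other probe sets), so the signs within the family differed.

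Of 6 tested INK4 inhibitors and pocket proteins 1 fell, against 1.53% of all genes. The gene was Cdkn2b, which encodes p15, an inhibitor of the cyclin D kinases. Its signals ran from 1110.7 to 2673.7 on sedentary and from 858 to 1333.9 on exercised arrays. It fell by 0.64 on the log2 scale (SE 0.17, limma adjusted p = 0.0397), and passed in 16 of 28 alternatives (0.00908 to 0.16). Without sedentary array 5 it was again the only gene of this list to pass.

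Of 28 tested cell cycle and replication genes 0 passed by limma (0 higher and 7 lower before adjustment), 23 had negative differences, against 7123 of all 12945 genes, and the median was -0.29. These counts rest on the main probe sets. In the fit over every probe set another Mcm7 probe set passed (-0.54, limma adjusted p = 0.0298 over 27026 probe sets), while the main one of Mcm7 did not. The level of this list was highest on sedentary array 5, and without that array 19 of 28 were negative, the median was -0.15 and 1 gene, Pcna, passed as lower. Pcna, the replication clamp, differed by -0.46 (SE 0.14, adjusted p = 0.0747) and by -0.33 (adjusted p = 0.04) without array 5, and it passed in 3 of 28 alternatives (0.0217 to 0.514). Ccnb2, a mitotic cyclin, differed by -0.79 (SE 0.32, adjusted p = 0.166). With macrophage markers as a covariate the differences were -0.20 for Pcna and -0.21 for Ccnb2, and the part of these cells in the result was not tested further.

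Of 23 immediate early and stress response genes, a class to which Btg2 and Gadd45b are often counted, 0 passed by limma (4 higher and 3 lower before adjustment at 0.05, median -0.01). Fosl2 differed by -0.41 (SE 0.14, limma adjusted p = 0.0934) and Fos by 1.04 (SE 0.35, limma adjusted p = 0.103). The other Fosl2 probe set differed by -0.13. Without sedentary array 5 the median of this list was 0.18, with 6 of 23 negative against 12 of 23 over all arrays. Of 14 glucocorticoid receptor targets 2 rose and 0 fell (median -0.11), against 4.0% and 1.53% of all genes. In the fit over every probe set, other probe sets of Klf9 (0.47, limma adjusted p = 0.0384) and Pnpla2 (0.55, limma adjusted p = 0.0286) also passed. The main probe sets of Klf9 and Pnpla2 did not pass. Per1, also a clock gene, rose by 0.57 (SE 0.11, limma adjusted p = 0.00737) and passed in 27 of 28 alternatives (0.00514 to 0.056). Its groups did not overlap, as in 2.68% of all genes in either direction. The kinase gene Sgk1 rose by 0.48 (SE 0.12, limma adjusted p = 0.0353) and passed in 17 of 28 alternatives (0.0136 to 0.127). Without sedentary array 5 the list had 2 genes higher and 1 lower (median -0.02). The lower gene was Zbtb16, named here after its values were seen. Over all arrays it differed by -1.195 (limma adjusted p = 0.0873), and its other probe sets by -0.42 and 0.14. Over all 7 lists, 5 of 129 genes tested passed, or 3.88%, against 5.53% of all genes. That count was 7 (3 higher, 4 lower) without sedentary array 5, against 4 higher and 1 lower over all arrays. It was 8 without sedentary array 7, 3 without any 1 of sedentary arrays 2, 3, 4 and 6 or of exercised arrays 5 and 6, and 2 without sedentary array 1 or exercised array 1, 3 or 7.

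**Figure D5:**
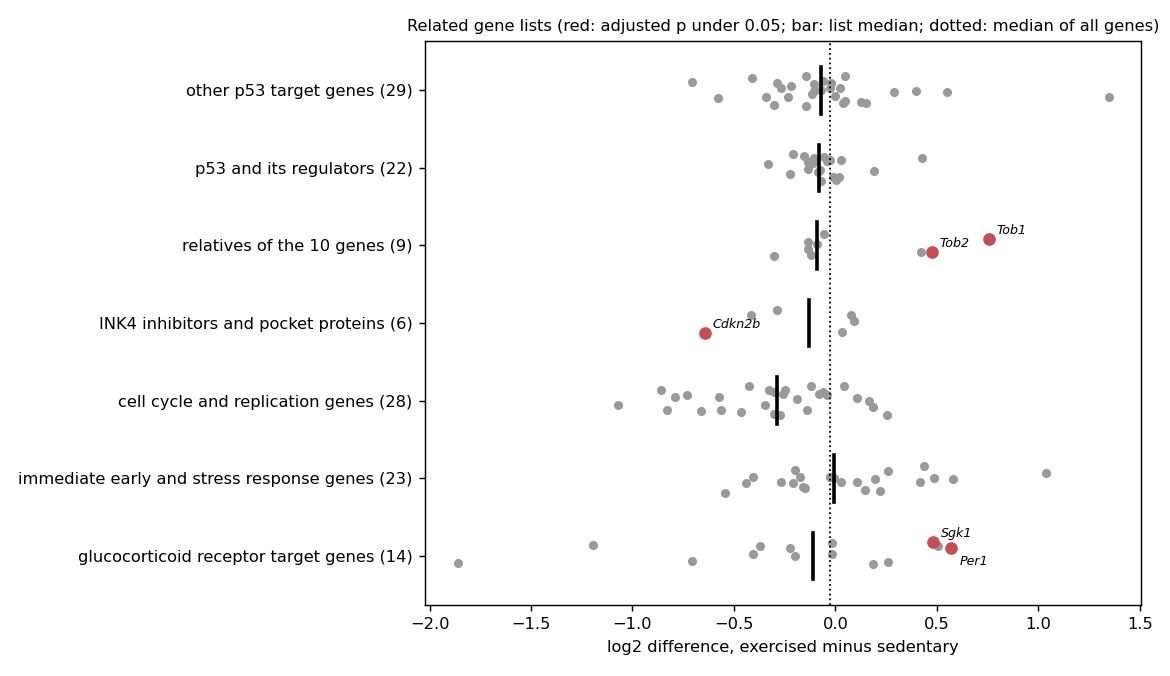
Log2 difference, exercised minus sedentary, of each gene tested in the 7 lists (number tested in brackets), with genes past an adjusted p of 0.05 in red, list medians as bars and the median of all genes as a dotted line. Only Tob1, Tob2, Cdkn2b, Per1 and Sgk1 are red.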

How the data were processed

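Biotin-labelled cRNA made from total RNA was hybridised to Affymetrix arrays. For 45101 probe sets on 14 arrays the authors deposited linear signal intensity, computed with MAS5 per the submitters' processing notes (version and settings not given in the sources used here). Every array had the same mean after trimming 2% at each end, so overall RNA amounts cannot be compared. The number of arrays, 7 per group, limits precision.

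The scale is log2(signal + 46.7), the added constant being the 10th percentile of the signals; it understates changes of dim genes. Symbols came from the platform annotation (34958 probe sets with 1 symbol, 932 with several, 9147 with none apart from 64 control probe sets), updated through Entrez identifiers to GRCm38.p6 (34754 matched). A gene was tested where its signal averaged at least 389.7 (the 40th percentile). The comparison was fitted with limma 3.58.1 in R 4.3.3 (trended prior variance), and the two-sided p-values of all 12945 genes were adjusted together by Benjamini-Hochberg. Intervals use limma's SE and the t distribution quantile of 12 residual degrees of freedom. Code was tested on simulated data. The members and lists were chosen with earlier results of these data known. Named genes were the 10 members, up to 4 genes past the threshold per list (or the 2 with the smallest p), and the 5 most and 3 least like Cdkn1a and Btg2. Btg1, Zbtb16, Mcm7, Klf9 and Pnpla2 were named outside this rule, after their values were seen. Of 144 listed genes 129 were tested, the others having no single-symbol probe set in the table used or a low signal. Alternatives were other pseudocounts, filters, probe set rules, scalings and variance models, marker levels as covariates, replicate number as a block, array weights and leaving out each array.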

Additional observations from a re-analysis of the deposited data

How the results depend on the processing

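Of the 8 genes tested, 0 passed in every alternative but 1, where Gadd45b did (without sedentary array 7). In the fit over every probe set this counts main probe sets only, and another Ccng1 probe set passed there (limma adjusted p = 0.0221). Cdkn1a differed by -1.11 to -0.80 and Btg2 by -0.48 to -0.35 over the 28 alternatives. A count over all 10 genes includes this pair, chosen for the same difference, so nothing is read from it: it was 2 over all arrays (beside 5.53% of all genes), 1 with no filter on low signal, with the replicate number as a block, and with muscle, lymphocyte or macrophage markers as a covariate, and 1 to 2 with 1 array left out. The 716 genes called became 161 with the replicate block, 222 with the muscle and 325 with the macrophage covariate (151 higher, 174 lower), and 402 to 853 with 1 array left out (424, 410, 412, 477 and 402 without exercised array 1, 3, 5, 6 or 7). Of the lists' genes, 5 over all arrays, 3 passed with no filter, 12 with array weights, 1 with the replicate block, 2 with the muscle and 3 with the macrophage covariate, and 2 to 8 with 1 array left out. The count of relations with Cdkn1a that passed was 0 in all 19 alternatives. Whether replicate numbers pair the arrays is not stated. Deviations of same-numbered arrays correlated between -0.43 and 0.38, and 4 of 14 arrays correlated best with their own number. These values cannot exclude a pairing, so the counts with the replicate block stand beside those without it. Signs turned only where differences were small. Sesn2 was -0.05 with array weights, -0.02 with the lymphocyte and -0.11 with the macrophage covariate, and -0.03, -0.02 and -0.01 without sedentary array 4, exercised array 5 and exercised array 7 (range with 1 array left out -0.03 to 0.12). Trp53inp1 was 0.02 and 0.22 with the lymphocyte and macrophage covariates and 0.02 without sedentary array 5 (range -0.27 to 0.02), and Mdm2 was 0.18 with the macrophage covariate and 0.01 without that array (range -0.27 to 0.01). The causes were not tested. Gadd45a had no value under the filter at the 60th percentile.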
